A study of Mus musculus with 5 samples.

Results

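The 5S rRNA, small nucleolar RNA (snoRNA) and Y RNA genes are short noncoding RNA genes that a microarray for messenger RNA also carries. Members were the rows of the deposited table with exactly 1 gene symbol beginning n-R5s, Snord, Snora or Rny in the platform annotation, and each gene was represented by its brightest row. This gave 54 genes of 19938, namely 1 5S rRNA gene, 31 box C/D snoRNA genes, 20 box H/ACA snoRNA genes and 2 Y RNA genes. The members were selected on their names and each row was chosen by its mean signal over all 5 arrays, and the group was proposed with results of these arrays in view, so the levels below are a description.

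The study compared mandibular condyle cartilage, the joint surface of the lower jaw, of 129/Sv mice without discoidin domain receptor 1 (genotype DDR-1-KO, n = 2) and of wild-type 129/Sv mice (n = 3). The labels give a mouse of its own to each array (knockout 2 and 5, wild type 3, 4 and 6) and neither age, sex nor the kind of knockout allele. Total RNA was labelled without removal of ribosomal RNA and hybridised to an Affymetrix mouse gene array. The array names place knockout 2 and wild type 3 in a first run and knockout 5, wild type 4 and wild type 6 in a second run.

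RNA polymerase III makes 5S rRNA, an RNA of the large ribosomal subunit, whereas most vertebrate snoRNAs are released from introns of other genes, many of which encode ribosomal proteins. Box C/D snoRNAs guide ribose methylation of ribosomal RNA and box H/ACA snoRNAs guide pseudouridylation, and a few of each kind are needed instead for cleavage of the ribosomal RNA precursor. Y RNAs are also polymerase III transcripts and are bound by the Ro60 protein. In cartilage, as in other tissues, these RNAs serve the making of ribosomes and the handling of small RNAs.

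Levels are log2 RMA signals, on which a difference of 1 is a 2-fold change, and changes are knockout minus wild type. Genotypes were compared by limma over all 19938 genes with Benjamini-Hochberg adjustment and a threshold of 0.05. Ddr1 itself had a level of 5.96 on knockout 2, 5.80 on knockout 5 and 6.02 on each wild-type array, and its change of -0.14 (SE 0.058) had an adjusted p of 0.377, so the array did not show the targeted gene to be lower. The labels do not say which part of the gene was deleted. Both knockout arrays stood apart from the wild-type arrays, whose correlations across all genes were 0.984 to 0.993 with each other. The correlation was 0.903 to 0.927 between knockout 5 and wild type. Knockout 2 stood further apart, at 0.803 to 0.837 with the other arrays, and the value of 0.803 was with knockout 5. Of 15 chondrocyte marker symbols listed, among them an older symbol of Cnmd, 14 were measured and 3 fell, beside 2.18% of all genes. The summed level of the 14 was 78.9 to 83.4 in knockout and 84.8 to 85.2 in wild type. Over 7 skeletal muscle markers the summed level was 40.8 to 41.9 in knockout and 42.7 to 43.7 in wild type, with none called. Of the other 7 marker lists only that of adipocytes held a call, 1 lower. The part of this difference in tissue markers in the results below was not tested, and in whole tissue fewer cells of a type and less RNA per cell cannot be told apart. No log2 signal in the table is a 0, so no marker can be said to be undetected.

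Of the 54 members, 4 passed the test. They were the 5S rRNA gene n-R5s136 and the H/ACA snoRNA Snora2b, which rose, and the H/ACA snoRNAs Snora73a and Snora73b, which fell. Among all genes tested 3.73% passed, 1.55% as higher and 2.18% as lower, and among members 3.70% were higher and 3.70% lower. These shares rest on 2 members each. In 12 members both knockout arrays lay above all wild-type arrays, which is 22.2% of them and held for 13.0% of all genes. In 7 members both knockout arrays lay below all wild-type arrays, which is 13.0% of them and held for 18.6% of all genes. An unadjusted limma p under 0.05 was reached by 15 members, 27.8% of them, and by 18.2% of all genes. A rise of at least 1 was seen in 9 members, 16.7% of them, and in 1.62% of all genes, but only 2 of the 9 passed the test. Among the 9, Snord37, Snord38a, Snord42a, Snord58b, Snord61 and Snora2b were very dim, with wild-type levels of 1.52 to 2.42. Cyclic loess lowered the change to 0.18 for Snord37, 0.28 for Snord38a, 0.33 for Snord58b, 0.21 for Snord61 and 0.46 for Snora2b. It gave 1.84 for n-R5s136 and 2.01 for Rny3. The share of 16.7% therefore depends on dim signals and on the normalisation.

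**Figure D1:**
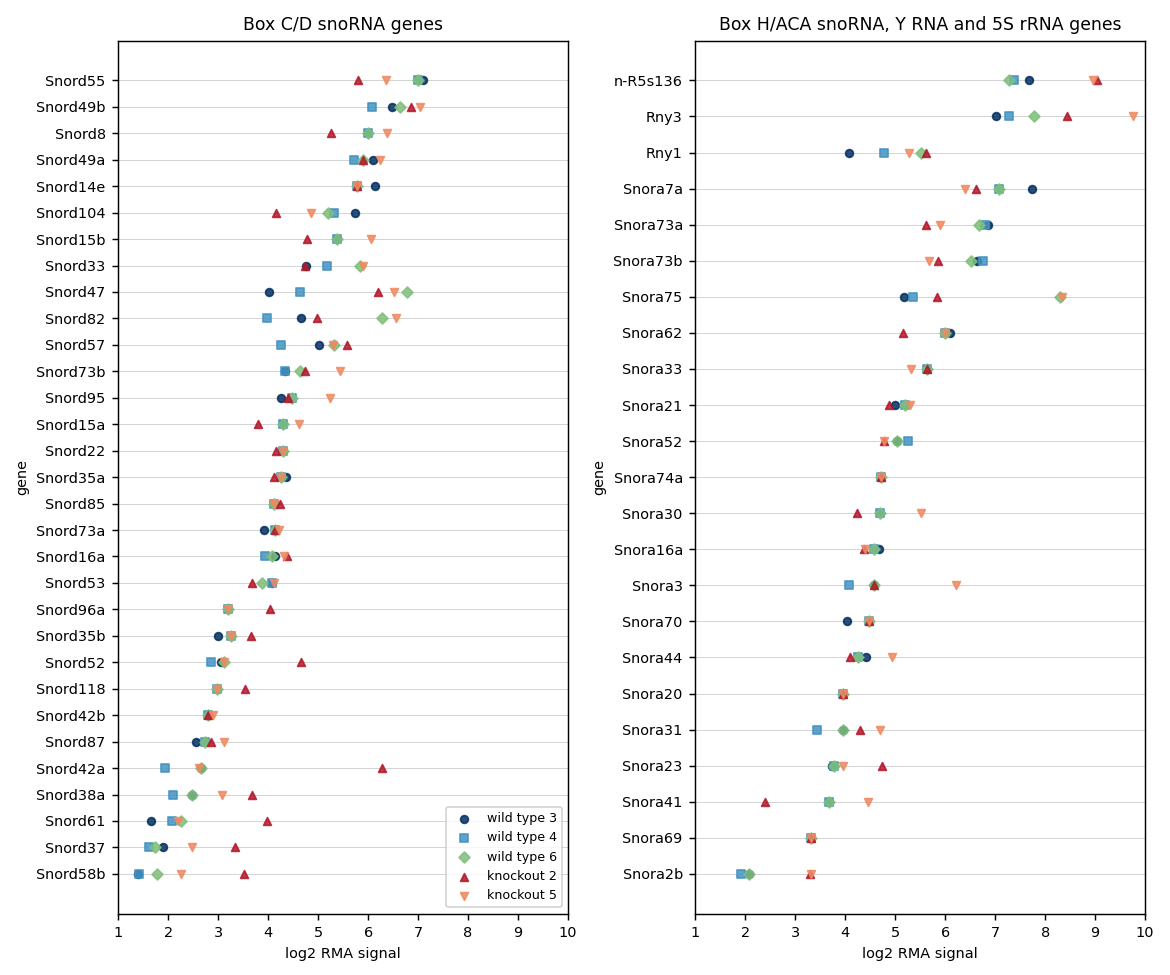
Log2 RMA signal on each array (points, wild type 3, 4 and 6 and knockout 2 and 5) for all 54 members, with box C/D snoRNAs at left and the other classes at right. n-R5s136 lies at 8.95 to 9.04 in knockout and 7.28 to 7.67 in wild type, and Snora73a and Snora73b lie below every wild-type array in both knockouts.

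Among the RNAs made by polymerase III, n-R5s136, one of the 51 nuclear 5S rRNA genes in the RefSeq table (GRCm38.p6), stood at 9.04 on knockout 2 and 8.95 on knockout 5. On wild types 3, 4 and 6 it stood at 7.67, 7.37 and 7.28. Both knockout arrays were high and the groups did not overlap. The level was 8.99 ± 0.062 in knockout (SD, n = 2) and 7.44 ± 0.20 in wild type (SD, n = 3), a rise of 1.55 (SE 0.14, limma adjusted p = 0.0316). Within the first run the difference was 1.37 and within the second 1.62, and without knockout 2 it was 1.51. The adjusted p was 0.0537 with the array run as a block, 0.0571 after cyclic loess and 0.0644 after scaling, and without wild type 3, 4 or 6 it was 0.106, 0.185 and 0.188. Copies of the 5S gene are nearly identical in sequence, so the signal cannot be assigned to this copy alone. This rise was already known from earlier work on these data and was part of why the genes were chosen.

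Rny3, a Y RNA bound by Ro60, stood at 8.43 on knockout 2 and 9.75 on knockout 5, and at 7.02, 7.28 and 7.78 on wild types 3, 4 and 6. Both knockout arrays were above all wild-type arrays, but they differed from each other by more than the wild-type arrays did. The change was 1.73 (SE 0.52, limma adjusted p = 0.215), which did not pass. Without knockout 2 it was 2.39 and without knockout 5 it was 1.07.

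The second Y RNA, Rny1, stood at 5.62 on knockout 2 and 5.28 on knockout 5, and at 4.07, 4.77 and 5.52 on wild types 3, 4 and 6. The groups overlapped, since wild type 6 lay above knockout 5. The change of 0.66 (SE 0.50) did not pass (limma adjusted p = 0.415). Both Y RNAs were lowest on wild type 3 and highest in wild type on wild type 6. The wild-type arrays thus differed by 0.76 for Rny3 and by 1.45 for Rny1.

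Of the proteins that act with these RNAs, Ro60, which binds misfolded small RNAs and Y RNAs, had 5.38 and 5.40 in knockout and 4.17 to 4.53 in wild type, a difference of 1.00 that did not pass (limma adjusted p = 0.0544). None of 7 measured genes of the Y RNA binding list of 8 symbols passed, and their median change was 0.042. That list names Ro60 by an older symbol too. None of 5 measured genes of the 5S particle list of 7 symbols, which names Rpf2 by an older symbol too, passed, with a median of -0.093. Gtf3a, the factor that binds the 5S gene, had a change of -0.50 (limma adjusted p = 0.189). Of 20 measured genes of RNA polymerase III and its factors, 22 listed, 1 rose and none fell, with a median of -0.22. Over all genes 1.55% rose and 2.18% fell. The riser was Polr3e, a polymerase subunit, at 5.90 and 5.78 in knockout and 5.16 on each wild-type array (change 0.68, SE 0.042, adjusted p = 0.0212). Its 3 wild-type values were identical, and the row brightest in wild type had a change of -0.28 (adjusted p = 0.399). Polr3e passed in 6 of 14 alternatives, those that left out a knockout array among them. The further subunits Polr3gl (-0.89, adjusted p = 0.0544) and Crcp (-1.09, adjusted p = 0.0691) did not pass. The median change over all genes tested was -0.0083.

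None of the 31 box C/D snoRNAs passed the limma test. An unadjusted limma p under 0.05 was reached by 6, 19.4% of them, beside 18.2% of all genes. Their sign leaned one way, with 23 higher and 8 lower in knockout and a median change of 0.29, beside 8493 higher, 10196 lower and 1249 at 0 over all genes. The median was 0.23 within the first run and 0.31 within the second. It was 0.27 without knockout 2 and 0.12 without knockout 5. After cyclic loess normalisation the median was 0.12, and after scaling all arrays to a common spread it was 0.057. In 7 of the 31, 22.6%, both knockout arrays lay above wild type and in 2, 6.45%, below, beside 13.0% and 18.6% of all genes.

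**Figure D2:**
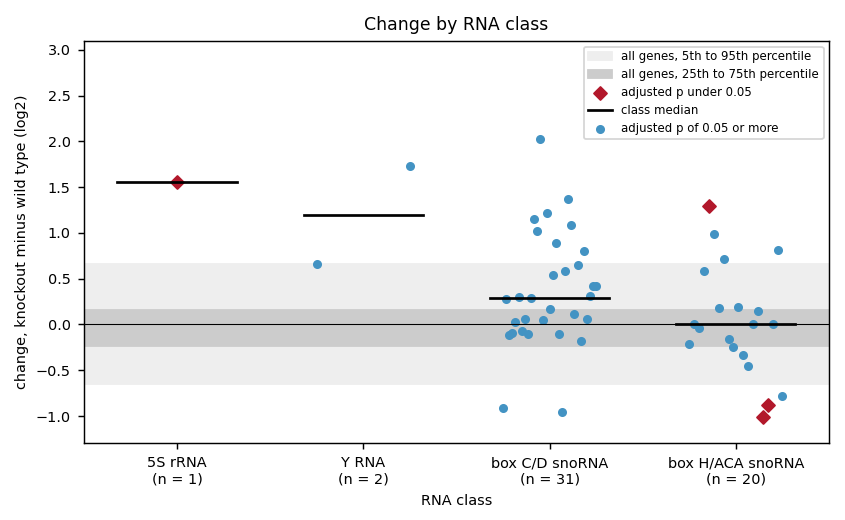
Change (knockout minus wild type, log2) of each of the 54 members by RNA class, with diamonds for the 4 members past the threshold, lines for class medians and grey bands for the spread of all genes. Box C/D snoRNAs lie mostly above 0 with a median of 0.29, and box H/ACA snoRNAs lie on both sides with a median of 0.

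The C/D class was split by mean signal, and each part had a higher median than all genes of the same part. Of the 31, 22 had a mean signal under the median of all genes (5.13), and 17 of those were higher and 5 lower, with a median of 0.30. The 9 brighter ones had 6 higher and 3 lower and a median of 0.064. Over all genes the same split gave a median of 0.065 for dim genes, with 5955 higher and 3322 lower, and -0.13 for bright genes, with 2538 higher and 6874 lower. Dim genes of the whole table were therefore also more often higher in knockout, and the part of this in the C/D median was not tested. The levels of all genes also spread differently, with an SD of 0.802 on knockout 2, 0.906 on knockout 5 and 0.991 to 1.02 on the wild-type arrays.

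Snord38a stood at 3.67 and 3.08 in knockout and at 2.48, 2.10 and 2.48 in wild type. The groups did not overlap, and the change of 1.02 (SE 0.25) did not pass (limma adjusted p = 0.151). Snord55 stood at 5.80 and 6.35 in knockout and at 7.09, 7.004 and 7.004 in wild type. It lay the other way, with a change of -0.96 (SE 0.19, adjusted p = 0.106). Both knockout arrays were below all wild-type arrays.

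Snord37, in the gene of elongation factor Eef2, stood at 3.33 and 2.46 in knockout and 1.90, 1.62 and 1.73 in wild type (change 1.15, adjusted p = 0.178). Snord58b, in Rpl17, stood at 3.52 and 2.26 in knockout and 1.40, 1.41 and 1.77 in wild type (1.37, adjusted p = 0.253). In both RNAs knockout 2 was the higher of the knockout arrays, and both knockouts were above wild type. Snord42a had the largest change of the class, 2.02 (adjusted p = 0.399), yet it rested on knockout 2 alone, at 6.29, while knockout 5 stood at 2.60 and wild type at 1.94 to 2.66. Snord61, in Rbmx, had the same shape, with 3.97 on knockout 2, 2.20 on knockout 5 and 1.65 to 2.26 in wild type. The knockout arrays differed by more than 1 in 13 members, 24.1% of them, beside 7.55% of all genes.

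Snord16a, in Rpl4, stood at 4.37 and 4.31 in knockout and 4.13, 3.93 and 4.07 in wild type, a small change of 0.30 (SE 0.075, limma adjusted p = 0.162) on close values. Snord104 stood at 4.15 and 4.86 in knockout and 5.74, 5.31 and 5.19 in wild type (-0.91, adjusted p = 0.263). Snord35a (-0.10) and Snord49b (0.54) were further members of the class whose change did not pass. Snord118, a snoRNA needed for cleavage of the precursor and the only one of the 51 snoRNAs that lies in no other gene of the RefSeq table, stood at 3.53 on knockout 2 and 2.97 to 2.98 on the other arrays. Snord8 stood at 5.99 on all wild-type arrays, with knockout 2 at 5.25 below them and knockout 5 at 6.37 above.

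Of 12 listed symbols for proteins that form or assemble C/D particles, 11 were measured and none passed, with a median change of -0.066. The list names Snu13 by an older symbol too. Fbl, the methyltransferase of the particle, stood at 5.90 and 6.35 in knockout and 6.99 to 7.38 in wild type, a difference of -1.06 (SE 0.20, limma adjusted p = 0.0984). The assembly ATPase Ruvbl2 (-0.20, adjusted p = 0.0633) had the lowest p of the list, and the assembly factor Znhit6 (-0.21, adjusted p = 0.136) came after Fbl.

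Of the 20 box H/ACA snoRNAs, 1 rose and 2 fell, 5% and 10% of them, beside 1.55% and 2.18% of all genes. These shares rest on 1 and 2 members. An unadjusted limma p under 0.05 was reached by 7, 35% of them, beside 18.2% of all genes. The signs were 8 higher, 9 lower and 3 at 0, and the median change was 0. It was -0.055 in the first run and 0 in the second, and 0.075 without knockout 2 and -0.22 without knockout 5. The 14 dim members had 7 higher and 4 lower, with a median of 0.075, while the 6 bright members had 1 higher and 5 lower, with a median of -0.62.

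Snora73a and Snora73b, both in the noncoding gene Snhg3, belong to a snoRNA kind that acts in cleavage of the precursor for the small ribosomal subunit. Snora73a stood at 5.61 and 5.90 in knockout and 6.85, 6.79 and 6.67 in wild type, and fell by 1.01 (SE 0.12, limma adjusted p = 0.0442). Snora73b stood at 5.85 and 5.67 in knockout and 6.64, 6.76 and 6.52 in wild type, and fell by 0.88 (SE 0.10, limma adjusted p = 0.0458). Each was below every wild-type array in both knockouts. The change of Snora73a was -0.87 without knockout 2 and -1.16 without knockout 5. A lone knockout array adds no spread of its own to the test, so only the changes are given. Both adjusted p-values rose to 0.194 or more when any wild-type array was left out, and to 0.107 and 0.103 with the run as a block. After cyclic loess they were 0.0503 and 0.116, and after scaling 0.0525 and 0.116. They were 0.0527 and 0.0543 with all rows tested, and 0.0539 and 0.0556 with a trended, robust prior. Their RefSeq lengths are both 205 bases and their sequences are alike, so they are uncertain as separate results.

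Snora2b, in Kansl2, stood at 3.30 and 3.32 in knockout and 2.07, 1.90 and 2.07 in wild type. The groups were far apart beside their spread, and the RNA rose by 1.29 (SE 0.069, limma adjusted p = 0.0171). Its wild-type signal was among the dimmest of the array, at the percentile 0.572 of all genes. Cyclic loess gave it a change of 0.46 (adjusted p = 0.306) and scaling one of 0.92 (adjusted p = 0.0577), so its size depends on the normalisation. With the run as a block the adjusted p was 0.0553, and without wild type 3, 4 or 6 it was 0.113, 0.130 and 0.179. The holding gene Kansl2 had a change of -0.19 (adjusted p = 0.399).

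Snora7a, in Rpl32, stood at 6.62 and 6.40 in knockout and 7.74, 7.07 and 7.07 in wild type (-0.78, limma adjusted p = 0.272). Snora16a, in Snhg12, stood at 4.37 and 4.40 in knockout and 4.66, 4.57 and 4.57 in wild type (-0.21, adjusted p = 0.107). Snora31, in Tpt1, stood at 4.29 and 4.69 in knockout and 3.94, 3.44 and 3.94 in wild type (0.71, adjusted p = 0.262). In each of these the groups did not overlap, in the direction of the change. Snora23, in Ipo7, also had both knockouts above wild type (0.58, adjusted p = 0.399), with knockout 2 at 4.74 and knockout 5 at 3.95. Snora41 stood at 3.67 on all wild-type arrays, with knockout 2 at 2.39 and knockout 5 at 4.44. All 6 measured proteins of the H/ACA particle and its assembly had no call, with a median change of -0.14, and among them Gar1 had -0.34, Nhp2 -0.17 and the assembly factor Shq1 -0.11.

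Several members varied widely between the wild-type arrays, where mouse and array cannot be told apart. The 3 wild-type arrays spanned more than 1 in 6 members, 11.1% of them, beside 0.376% of all genes. Of the 4 largest wild-type ranges in the whole table, 3 belonged to members. Snora75 stood at 5.17, 5.35 and 8.30 on wild types 3, 4 and 6 and at 5.83 and 8.34 on knockouts 2 and 5, a wild-type range of 3.13 and the largest of all genes. It was high on wild type 6 and knockout 5 and low on the others.

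Snord47, in Gas5, stood at 4.02, 4.63 and 6.77 in wild type and 6.19 and 6.52 in knockout, a wild-type range of 2.75. Snord82, in Ncl like Snora75, stood at 4.65, 3.98 and 6.28 in wild type and 4.98 and 6.56 in knockout, a range of 2.30. The remaining ones were Rny1 (1.45), Snord33 (1.09) and Snord57 (1.06). In all 6 wild type 6 was the highest wild-type array. Just under the threshold of 1 stood Rny3 at 0.76 and Snord42a at 0.72. With this spread, changes such as 1.22 for Snord47 (SE 0.98, limma adjusted p = 0.438) and 0.82 for Snora75 (SE 1.46, adjusted p = 0.730) did not pass.

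**Figure D3:**
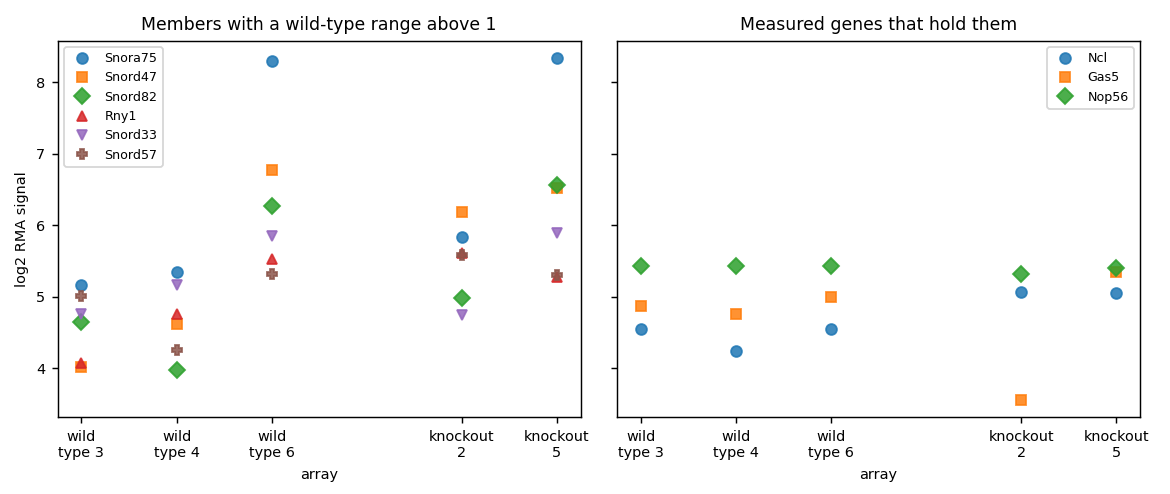
Log2 RMA signal on each array (points) of the 6 members with a wild-type range above 1, at left, and of the 3 measured genes that hold 4 of them, at right. Snora75 reaches 8.30 on wild type 6 and 8.34 on knockout 5, while Ncl and Gas5 lie within 4.25 to 5.003 on the wild-type arrays.

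Over all members, wild type 6 was the highest wild-type array in 12, 22.2% of them, beside 6.76% of all genes. In 7 of these 12 knockout 5 was also above knockout 2, 13.0% of members beside 3.50% of all genes. Of the 1348 genes in the whole table with wild type 6 highest, 698 also had knockout 5 above knockout 2. Without regard to wild type 6, knockout 5 was above knockout 2 in 31 of 54 members and in 10043 of 19938 genes. Wild type 6 and knockout 5 are both of the second run, but so is wild type 4, which stood low in Snora75, Snord47 and Snord82. What sets these 2 arrays apart was not tested. The 6 ranges were all over 1 after cyclic loess and after averaging rows, and 5 were after scaling. At the other extreme, 13 members, 24.1% of them, had 3 identical wild-type values, beside 39.1% of all genes. Snora20, Snora69 and Snora74a, 5.56% of members, had 5 identical values, beside 6.26% of all genes. Equal values can arise from the summary of probes by median polish and do not show equal expression.

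The measured genes that hold these snoRNAs varied less on the wild-type arrays. Ncl, which encodes nucleolin and holds Snora75 and Snord82, stood at 4.55, 4.25 and 4.55 in wild type and 5.06 and 5.05 in knockout. Its wild-type range of 0.31 is far below those of its snoRNAs, and its change was 0.60 (SE 0.12, limma adjusted p = 0.106). Gas5, a noncoding gene of many snoRNAs, had a wild-type range of 0.24 and stood at 3.55 on knockout 2 and 5.35 on knockout 5. Nop56, which holds Snord57 and encodes a core protein of C/D particles, had 3 identical wild-type values. Among all measured holding genes the largest wild-type range was 0.86, for Tpt1. Tpt1 stood at 5.77, 5.59 and 6.45 on wild types 3, 4 and 6 and at 5.56 and 6.56 on knockouts 2 and 5. Like Gas5, it was highest in wild type on wild type 6 and was higher on knockout 5 than on knockout 2. Ncl and Nop56 did not have wild type 6 as their highest wild-type array.

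Of the 51 snoRNAs, 50 lie within another gene of the RefSeq table, which has no strand, so a gene on the other strand is counted too. Their 43 holding genes include 25 measured ones, with a median change of 0.023. Of these 25 genes 1 passed, beside 3.73% of all genes. It was Rbmx, an RNA-binding protein gene, which fell by 0.67 (limma adjusted p = 0.0459) while its snoRNA Snord61 had a change of 1.09. Rbmx passed in 6 of 14 alternatives. In 29 pairs of a snoRNA and a measured holding gene, 10 had the same sign. The changes of Snora20 and of Srcap, which holds Snora30, were 0, so those pairs could not share a sign. Ncl, Rps3, Rpl23a and Rps3a1 each enter more than 1 pair. No share of unrelated genes was worked out to set beside this count. In 9 genes that hold 2 members, the pair had the same sign in 6, among them Rps3a1 with Snord73a (0.11) and Snord73b (0.65), and opposite signs in 3, among them Snhg12 with Snora16a (-0.21) and Snora44 (0.20). In Rack1, a gene of a small-subunit protein, Snord95 and Snord96a both had a change of 0.42, but on different arrays. Snord95 was high on knockout 5 alone, at 5.23, with knockout 2 at 4.40 and wild type at 4.25 to 4.48. Snord96a was high on knockout 2 alone, at 4.04, with 3.19 on every other array. The change of Snord95 was 0.0027 without knockout 5 and that of Snord96a was 0 without knockout 2. Pairs of a gene share its transcription but are read by separate probes.

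**Figure D4:**
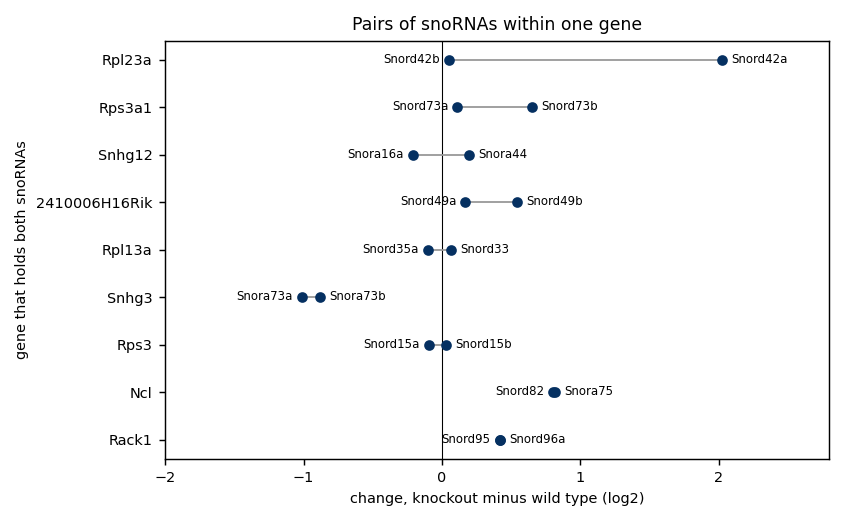
Changes (knockout minus wild type, log2) of the 2 member snoRNAs in each of 9 holding genes, each point a snoRNA and each line joining a pair. Points lie on the same side of 0 in 6 genes, and in Snhg12 they lie at -0.21 and 0.20.

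Genes that hold snoRNAs often begin with a terminal oligopyrimidine tract, a run of C and T from the first transcribed base that places a messenger RNA under growth-dependent translation. The start regions of 4 holding genes are shown, Ncl and Gas5 for the snoRNAs that varied in wild type, Snhg3 for those that fell and Rack1 for a pair that was high on different knockout arrays. Each runs from 30 bases before the start to 20 bases from it on the strand of transcription, from RefSeq GRCm38.p6, and capitals mark a C at the first transcribed base followed by at least 4 more C or T.
Rack1 (chr11:48800330-48800379, plus strand): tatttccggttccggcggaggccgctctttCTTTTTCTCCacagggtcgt
Gas5, downstream start (chr1:161035136-161035185, plus strand): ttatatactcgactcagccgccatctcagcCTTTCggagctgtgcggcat
Gas5, upstream start (chr1:161034571-161034620, plus strand): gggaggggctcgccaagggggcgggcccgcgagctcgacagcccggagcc
Ncl (chr1:86359436-86359485, minus strand): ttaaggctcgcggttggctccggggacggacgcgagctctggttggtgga
Snhg3 (chr4:132353667-132353716, minus strand): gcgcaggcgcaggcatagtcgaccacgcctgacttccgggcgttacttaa
Such a start was found at 6 of 33 starts of the 31 holding genes in the table, 18.2%, beside 2.51% of all 32851 starts. Rack1 and the downstream start of Gas5 have it, and the windows of Ncl and Snhg3 do not hold these letters at the annotated start. A match is a description of the letters and says nothing of the changes.

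The list of 27 genes known to hold snoRNAs had 17 measured members, with a median change of 0. Of the 17, 1 fell and none rose, beside 2.18% and 1.55% of all genes. The gene that fell was Rps20, a protein of the small ribosomal subunit (-0.18, limma adjusted p = 0.0315). It stood at 5.53 and 5.55 in knockout and 5.72 on each wild-type array. Rps20 passed in 6 of 14 alternatives, those that left out a knockout array among them. Hspa8, a chaperone gene that holds Snord14e, had the largest change of the list, 1.45 (adjusted p = 0.153), at 5.68 and 6.44 in knockout and 4.21 to 4.93 in wild type, but the row brightest in wild type had a change of -0.65. Snord14e itself stood at 5.78 on both knockout arrays and at 5.78 to 6.13 in wild type, a change of -0.11 (adjusted p = 0.598).

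The RefSeq lengths of the members set a limit on what was measured. Box C/D snoRNAs had 45 to 148 bases (median 68), box H/ACA snoRNAs 61 to 205 (median 125), n-R5s136 121, Rny1 111 and Rny3 101. Recovery of RNAs this short by the extraction was not measured. Wild-type signals had a median of 4.40 over members, beside 5.16 over all genes, and 27 members had a mean signal over the 5 arrays at or below the lower quartile of all genes. Signals of different genes come from different probes and are not compared as amounts.

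**Figure D5:**
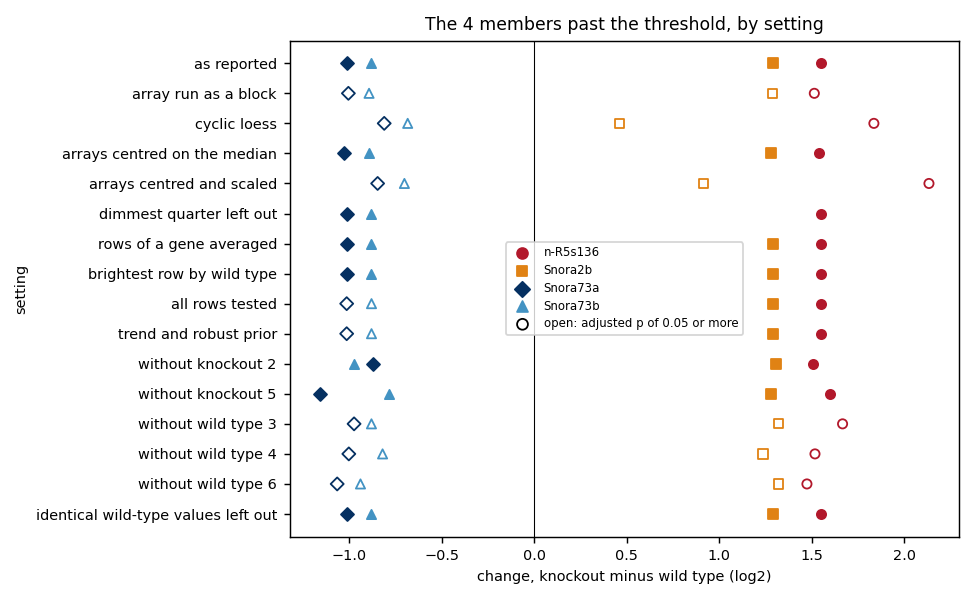
Change (knockout minus wild type, log2) of the 4 members past the threshold under the deposited values and each alternative of processing, with filled points for an adjusted p under 0.05 and open points otherwise. All points are open with the run as a block, after cyclic loess, after scaling and without any of the 3 wild-type arrays, and Snora2b has no point where dim genes were left out.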

How the data were processed

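The deposited table holds log2 values that the authors made with Affymetrix Expression Console and RMA, per the submitters' processing notes. RMA removes background, brings the arrays to common quantiles and combines probes by median polish, which can return identical values on several arrays. Software versions and the build behind the table were not given in the sources used here, and raw intensities were not used here, so the number of arrays limits the precision. Of 35556 rows, 21789 had 1 symbol, 1621 had several and 12146 had none; the brightest row of each symbol gave 19938 genes, of which 54 were members (59 rows), all of them matched in RefSeq GRCm38.p6.

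Knockout (n = 2) and wild type (n = 3) were compared with limma 3.58.1 (lmFit, eBayes) in R 4.3.3, knockout minus wild type, two-sided, with Benjamini-Hochberg adjustment over all genes. The code of the fit was run on simulated data with the same spread for all genes and arrays. That setting lacks the identical values and unequal spreads of these arrays, so it does not show how the fit behaves on them. The members and lists were chosen with earlier results of these data known. The genes named were Ddr1, the Y RNAs, in each class up to 5 largest rises and falls past the threshold or else up to 3 of lowest p in each direction, the 3 brightest and 3 dimmest in wild type, and up to 3 of lowest p from each protein list. Others, among them Snora75, Snord47, Snord82, Snord42a, Rbmx and the non-called snoRNAs of shared genes, were named after their values were seen.

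Alternatives were the array run as a block, cyclic loess, centring, scaling, a filter on dim genes, other choices of row, another variance model, leaving out each array, and leaving out genes with identical wild-type values. The pairs of members within a gene leave out 1 pair, which is not reported here. Those for the wild-type range were chosen after seeing the data. P-values rest on the spread between mice and arrays together.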

Additional observations from a re-analysis of the deposited data

Results flagged for a closer look

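Rows whose annotation gives several symbols were left out of the comparison, and 41 of them, in 15 sets of symbols, carry a name of the same RNA kinds. In 35 of the 41 both knockout arrays lay above all wild-type arrays and in 1 below. Over all 1621 rows with several symbols these shares were 29.4% above and 6.17% below. The largest set holds 24 rows for copies of a repeated box C/D snoRNA cluster, with 7 distinct sets of values, and in all 24 both knockout arrays were above all wild-type arrays, a signal in data outside the main comparison. Their medians were 6.39 on knockout 2 and 5.43 on knockout 5, against 4.04, 3.90 and 4.54 on wild types 3, 4 and 6, with a median change of 1.75. The rows share probes and sequence and are not independent, and the difference was not tested. The other 14 sets hold 17 rows, of which 11 lay above and 1 below.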

How the results depend on the processing

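With the array run as a block, after cyclic loess and after scaling, limma called 0 5S rRNA genes, 0 box H/ACA snoRNAs and 0 of all 19938 genes, while an unadjusted limma p under 0.05 was reached by 3829, 4155 and 3795 genes. Testing all rows called 445 genes and 1 box H/ACA snoRNA, and a trended, robust prior also called 1 box H/ACA snoRNA. Y RNA genes had 0 calls under every alternative run. With each array left out in turn, calls ranged from 0 to 1 for 5S rRNA, from 0 to 14 for box C/D, from 0 to 8 for box H/ACA and from 0 to 9999 for all genes. Without a knockout array the lone knockout is assumed to vary like the wild-type arrays, and leaving out knockout 2 or 5 gave 7513 and 9999 calls, while leaving out any wild-type array gave 0. The median change of the 5S gene was 1.84 after cyclic loess and 2.13 after scaling. For box C/D it was 0.12, 0.057, 0.17 without dim genes, 0.36 without genes of identical wild-type values, and 0.12 to 0.33 with each array left out. For box H/ACA it was -0.040, -0.064, -0.16, 0.054, and -0.22 to 0.075. With each array left out, Snord8 ranged from -0.73 to 0.38, Snora41 from -1.28 to 0.77 and Rrs1, a factor of 5S particle assembly, from -0.023 to 0.15, each turning sign without knockout 2, and with the row brightest in wild type it turned for Polr3e (-0.28); the cause was not tested. Ddr1 had 0.029 after cyclic loess and 0.018 after scaling. No other gene named by the rule turned sign from a change above or below 0. Of 24 genes named after their values were seen, 11 turned sign in at least 1 alternative, among them Snora75 (-0.44), Snora44 (-0.22) and Snord33 (-0.51) without knockout 5, Gas5 (0.47) without knockout 2 and Hspa8 (-0.65) with another row. No paired analysis was possible because the groups share no replicate number, so the array run was the only block. Dim signals limit the 27 members below the lower quartile, and 2 against 3 arrays limit every test.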

Other observations

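Other short noncoding RNAs on the array, mostly microRNAs, gave 315 genes, of which 9 rose and 2 fell by limma, with a median change of 0.065. These are 2.86% and 0.635%, beside 1.55% and 2.18% of all genes. All 9 rises were microRNA entries. Of the 13 that are not microRNAs, 0 rose and 1 fell, and 4 were higher and 9 lower, with a median of -0.26. A wild-type range above 1 was seen in 7 of them, 2.22%, and in 2 of the 13 that are not microRNAs, 15.4%, beside 11.1% of the 5S rRNA, snoRNA and Y RNA genes. Among those that are not microRNAs, Rmrp, the RNA of a ribonuclease that acts in ribosomal RNA processing, stood at 6.55 and 6.69 in knockout and 7.29, 7.29 and 7.33 in wild type, and fell by 0.68 (SE 0.051, limma adjusted p = 0.0245). It passed in 9 of 15 alternatives. Rpph1, the RNA of ribonuclease P, stood at 7.57 and 8.21 in knockout and 7.82, 8.21 and 8.38 in wild type (-0.25, adjusted p = 0.591). Rnu3a, a box C/D RNA that acts in cleavage of the ribosomal RNA precursor, stood at 6.15 on knockout 2 and 7.77 on knockout 5, and at 5.62, 5.62 and 6.73 on wild types 3, 4 and 6. It was highest on knockout 5 and, within wild type, on wild type 6, the arrays on which Snora75 and Snord82 were high. Rnu5g, a spliceosomal RNA, stood at 4.36 and 4.50 in knockout and 2.27, 3.17 and 2.40 in wild type (1.82, adjusted p = 0.0924). Rnu6, another, stood at 5.31 on knockout 2, 2.51 on knockout 5 and 0.736 to 1.77 in wild type (2.60, adjusted p = 0.329). These genes were chosen after their values were seen.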
